A study of Saccharomyces cerevisiae YPS1009 with 40 samples.

Results

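The genes described here encode the proteins of the small (40S) subunit of the ribosome of the budding yeast Saccharomyces cerevisiae. They were chosen by name, as all genes from RPS0A to RPS30B except RPS31, which encodes a subunit protein fused to ubiquitin. No measured value entered this rule, although earlier results of these data were known when it was set. This gave 55 of the 6714 genes in the count table. All 55 had at least 10 counts in at least 2 libraries and so were among the 5864 genes tested. Of the 55 genes, 48 form 24 pairs of duplicated genes, with copies named A and B, and 7 are single-copy genes, among them RPS2, RPS3, RPS12, RPS13, RPS15 and RPS20. An intron is annotated in 36 of them and none in the other 19. They lie on 14 chromosomes, with 6 on chromosome IV, 7 on XII, 3 on XIV and 7 on XV.

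The small subunit binds the mRNA, scans for the start codon and reads each codon against its tRNA. In growing yeast its protein genes are among the most actively transcribed of the cell. Rap1, Fhl1 and Ifh1 bind their promoters, and the nutrient-sensing kinases TORC1, protein kinase A and Sch9 keep them active. When nutrients run out these genes are shut down as a block, and repression of translation genes is a known part of the entry into quiescence, the resting state that yeast cells take up in an exhausted culture. Most pairs of copies stem from an ancient duplication of the whole genome, and their proteins are nearly identical.

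RNA was sequenced from haploid MATa strains of YPS1009, an isolate from oak soil, grown in the rich medium YPD. The strains YPS1009_Chr4, YPS1009_Chr12, YPS1009_Chr14 and YPS1009_Chr15 each carried a duplication of the chromosome in their name, and were compared with the YPS1009 euploid. They are called Chr4, Chr12, Chr14, Chr15 and euploid below. Each was sampled in log phase (3 generations after dilution to an OD600 of 0.05) and at days 1, 3 and 7, which the sample labels give as 24, 72 and 168 h from the start of culturing and the study's methods as counted from the log-phase harvest. With 2 cultures each, this makes 20 groups and 40 libraries. The labels number the cultures and say no more about their origin, so p-values measure only the spread between these libraries. Chr12 and the euploid shared a deletion of HO, the endonuclease gene of mating-type switching, marked with HphMX. Chr4, Chr14 and Chr15 carried the allele ho-Δ1, so in these 3 strains the extra chromosome and the ho allele cannot be told apart. Each karyotype was represented by a single strain. Glass beads were used to extract RNA from the later time points and not in log phase, so extraction and time cannot be told apart either. By the study's methods, frozen cells of the fission yeast Schizosaccharomyces pombe were added to the samples ahead of extraction, as a per-cell standard.

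The libraries held 4182717 to 7036849 counts in log phase, 1997415 to 3792145 at day 1, 1033073 to 2228477 at day 3 and 725316 to 2324046 at day 7. Differences were tested with edgeR's quasi-likelihood test over all 5864 genes, with Benjamini-Hochberg adjusted p-values, and a gene is called higher or lower where that p is under 0.05. Log2 differences are given with their standard error (SE). Levels are counts scaled by TMM to a common library size (CPM), so they are relative to the other transcripts of the library and say nothing about transcripts per cell. In a bulk sample, fewer cells that express a gene and less RNA per cell cannot be told apart. The duplicated chromosomes showed in the RNA as labelled. In log phase the median log2 difference from the euploid over all tested genes of the extra chromosome was +0.81 in Chr4, +0.92 in Chr12, +0.83 in Chr14 and +0.78 in Chr15. The 2 Chr12 cultures of day 7 stood apart from each other, as the share of counts below shows. Several results that rest on them are also given with libraries left out.

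The copies of a pair can be told apart only where their sequences differ, and several results below rest on telling them apart. The coding sequences of the 24 pairs were 84.3% to 99.2% identical (median 92.7%), and 9 pairs encode the same protein in both copies. For 3 of the pairs whose copies parted most between conditions, the 60 coding bases with the most differences are shown, 5′ to 3′ on the coding strand from the RefSeq S288c genome (R64), with the bases that differ between the copies in capitals. The windows are chrX:75201-75260 (minus strand) for RPS22A and chrXII:856484-856543 (plus) for RPS22B, chrXV:867613-867672 (plus) for RPS10A and chrXIII:732902-732961 (plus) for RPS10B, and chrIV:1360405-1360464 (plus) for RPS18A and chrXIII:223321-223380 (minus) for RPS18B.
RPS22A: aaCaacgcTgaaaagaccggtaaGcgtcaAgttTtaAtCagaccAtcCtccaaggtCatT
RPS22B: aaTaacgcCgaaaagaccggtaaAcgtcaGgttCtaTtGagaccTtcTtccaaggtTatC
RPS10A: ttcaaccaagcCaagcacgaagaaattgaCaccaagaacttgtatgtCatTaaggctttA
RPS10B: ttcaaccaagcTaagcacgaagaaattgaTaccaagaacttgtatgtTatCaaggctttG
RPS18A: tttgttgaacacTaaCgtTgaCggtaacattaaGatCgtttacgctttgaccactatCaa
RPS18B: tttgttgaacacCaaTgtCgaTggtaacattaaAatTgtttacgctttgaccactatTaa
In these windows the RPS22 copies differ at 11 bases, the RPS10 copies at 5 and the RPS18 copies at 7. Outside such windows copies can be identical over long runs, as over 311 of the 711 coding bases of the RPS6 copies. How reads that fit both copies were counted is not given in the sources used here, so the split between the copies of RPS6, RPS4 and RPS24, which are among the pairs with the longest identical runs, is uncertain. The longest run in the RPS22 pair is 35 bases, and in the RPS10 and RPS18 pairs 47 and 56. The intron of RPS22B also holds the small nucleolar RNA SNR44 on the same strand, which has no row of its own in the count table.

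Upstream of the coding start, exact matches to published cores of the factors that act on these genes were counted in 500 bases, on both strands, and set beside the same windows of 6005 genes. The Rap1 core, spelled ACCCATACA or ACCCGTACA, was in 12 of 55 windows (21.8%), against 1.47% of all windows. The short core of Fhl1 and Ifh1, GACGC, was in 27 (49.1%), against 30.3% of all. The stress element CCCCT of Msn2 and Msn4 was in 13 (23.6%, against 34.00%), the RRPE core AAAATTTT in 4 (7.27%, against 12.4%) and the PAC core GATGAG in 11 (20%, against 28.2%). No motif contains another in these spellings. The Rap1 match nearest to the coding start lay 246 to 498 bases from it (median 341). Printed here are windows of the 2 members with a Rap1 match whose level fell most in the euploid at day 3, with the match in capitals and the gene's coding strand read 5′ to 3′ (R64).
RPS17B: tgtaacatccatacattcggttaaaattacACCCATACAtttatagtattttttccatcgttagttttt
RPS11B: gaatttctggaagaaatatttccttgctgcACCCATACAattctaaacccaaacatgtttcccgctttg
They lie at chrIV:1355811-1355879 on the minus strand and chrII:332497-332565 on the plus strand. In the euploid at day 3, the log2 change from log phase of the 12 members with a Rap1 match was -6.98 to -4.95 (median -5.73), and that of the 43 without one -8.09 to -1.09 (median -5.27). The members with the smallest falls, and also those with the deepest, were thus all without an exact Rap1 match in this window. Medians with and without a match were -5.31 and -5.33 for GACGC, -5.42 and -5.28 for CCCCT, -4.67 and -5.31 for AAAATTTT (4 members with a match), and -5.81 and -5.29 for GATGAG.

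The 55 genes took their highest share of the counts in log phase in every strain. In Chr12 the 55 genes took 8.796% and 9.23% of the counts in log phase, 2.71% and 2.899% at day 1, 2.25% and 2.43% at day 3 and 0.424% and 1.35% at day 7. The Chr12 share at day 3 was thus close to that at day 1, while the 2 cultures of day 7 differed widely. In Chr4 the 55 genes took 8.398% and 8.01% of the counts in log phase, 1.34% and 1.28% at day 1, 0.228% and 0.233% at day 3 and 0.108% and 0.135% at day 7. In Chr14 the 55 genes took 8.54% and 9.001% of the counts in log phase, 1.57% and 1.43% at day 1, 0.729% and 0.554% at day 3 and 0.849% and 0.612% at day 7. In Chr15 the 55 genes took 8.68% and 8.62% of the counts in log phase, 1.302% and 1.18% at day 1, 0.432% and 0.611% at day 3 and 0.676% and 0.641% at day 7. In Chr4 the shares were lower at day 7 than at day 3 in both cultures, which held in neither Chr14 nor Chr15. In the euploid they took 9.68% and 9.87% of the counts in log phase, 1.400% and 1.11% at day 1, 0.252% and 0.346% at day 3 and 0.391% and 0.725% at day 7. The euploid cultures of day 3 lay below those of Chr12, Chr14 and Chr15 and above those of Chr4. As means with SD (n = 2), the day 3 shares were 0.2304% ± 0.00303 in Chr4, 2.34% ± 0.128 in Chr12, 0.642% ± 0.124 in Chr14, 0.521% ± 0.127 in Chr15 and 0.299% ± 0.0665 in the euploid. In log phase all 8 aneuploid libraries lay below both euploid libraries.

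**Figure D1:**
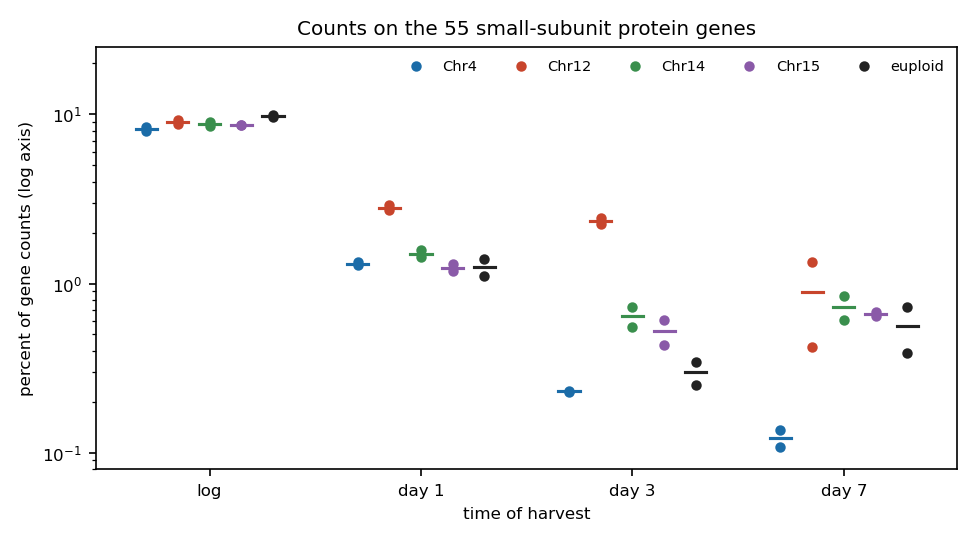
Share of all gene counts that fell on the 55 small-subunit genes (percent, log axis), by time point and strain. Each point is 1 library and each bar the mean of 2 libraries. The Chr12 points at day 3 lie above those of the other 4 strains.

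Within the subunit the genes did not share 1 level, although the ribosome holds their proteins in equal numbers. In euploid log phase, RPS10A (a protein near the entry of the mRNA channel) was the highest per kilobase of coding sequence, with 6962 and 7718 CPM per kilobase. It was followed by RPS12 (a protein of the subunit's beak) with 7169 and 7261 CPM per kilobase and RPS20 (a protein of the head that Hel2 marks with ubiquitin on stalled ribosomes) with 6925 and 7266 CPM per kilobase. The libraries of these 3 genes overlapped, so their order is not set. At the low end stood RPS9A (the lesser copy of a protein that guards decoding accuracy) with 379 and 449 CPM per kilobase and RPS27A (the lesser copy of a zinc-finger protein) with 475 and 425 CPM per kilobase, which overlapped. RPS22B, the lesser copy of another core protein, had 1169 and 1170.2 CPM per kilobase, above both, and overlapped RPS14B at 1128 and 1240.3 CPM per kilobase, so the third place from the bottom is not set. These low genes are all A or B copies whose partner is higher. At day 3 the order was another. RPS30A and RPS30B, which encode the same small protein near the decoding site, stood highest with 1863 and 1952 CPM per kilobase and 1595 and 1661 CPM per kilobase.

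In the euploid, all 55 genes fell below log phase at each later time. At day 1 all 55 were lower (background 35% of all genes tested), by a median log2 change of -3.08 over a range of -4.79 (RPS22A) to -2.05 (RPS30A). At day 3 all 55 were lower (41.4% of all genes tested), by a median of -5.31 with quartiles of -6.35 and -4.29 and a range of -8.09 (RPS22A) to -1.09 (RPS30B). At day 7 all 55 were lower (38.2% of all genes tested), by a median of -4.58 over -6.04 (RPS22A) to -1.54 (RPS27A). None was higher at any of these days, where 34.3%, 38.7% and 37.5% of all genes tested were. The median change of all tested genes was 0.00, -0.16 and -0.02 at days 1, 3 and 7. The 81 genes of the large subunit had medians of -3.02, -5.67 and -4.57 at the same days, with 80 of 81 lower at day 3. The fall was thus of a similar size in both subunits, while within the small subunit the falls differed widely.

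The deepest fall was that of RPS22A (YJL190C, chrX:74910-75302), the main copy of a core protein of the subunit. It had 2306 and 2458 CPM in log phase, 109 and 62.8 CPM at day 1, 7.22 and 10.1 CPM at day 3 and 19.5 and 49.2 CPM at day 7, with 7 and 11 counts left at day 3, for a log2 change at day 3 of -8.09 ± 0.58 SE, adjusted p = 3.25e-13. RPS18B (YML026C, chrXIII:222987-223828), a copy of a protein at the top of the head that contacts the large subunit, had 1918 and 1975 CPM in log phase, 259 and 213 CPM at day 1, 11.3 and 10.97 CPM at day 3 and 48.3 and 51.5 CPM at day 7. Its day 3 change was -7.44 ± 0.45 SE, adjusted p = 1.03e-14, on 11 and 12 counts. In both genes the libraries of the later days lay far below those of log phase, and both day 7 libraries lay above both of day 3.

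The smallest falls were those of RPS30A, RPS30B and RPS27A. RPS30B (YOR182C, chrXV:678191-678793) had 684 and 649.7 CPM in log phase, 155 and 135 CPM at day 1, 306 and 319 CPM at day 3 and 226 and 119.7 CPM at day 7, and its day 3 change was -1.09 ± 0.24 SE, adjusted p = 1.59e-04. RPS30A (YLR287C-A, chrXII:712537-713158) had 788 and 827 CPM in log phase, 205 and 184 CPM at day 1, 358 and 375 CPM at day 3 and 122 and 85.1 CPM at day 7, with a day 3 change of -1.14 ± 0.25 SE, adjusted p = 1.76e-04. Both copies thus stood higher at day 3 than at day 1 and lower again at day 7. RPS27A (YKL156W, chrXI:158613-159212), low already in log phase, had 118 and 106 CPM in log phase, 14.96 and 11.5 CPM at day 1, 52.6 and 39.3 CPM at day 3 and 33.4 and 42.2 CPM at day 7, with a day 3 change of -1.29 ± 0.29 SE, adjusted p = 1.55e-04. From day 1 to day 3 these were the 3 members called higher in the euploid (background 30.9%), at log2 +1.799, +1.11 and +0.91 for RPS27A, RPS30B and RPS30A. Estimates lay above 0 in 6 members, and 48 were called lower (36.3%). From day 3 to day 7 the pattern turned. Of the 55 genes, 25 were called higher (background 21.8%) and 3 lower (13.5%), with a median of +0.79. The 25 were 9 without euploid culture 1 of day 3, 8 without euploid culture 2 of day 7 and 0 in a fit of the 2 groups alone. The 3 were 5 without euploid culture 1 of day 7 and 1 without culture 2. RPS30A fell most, at -1.84 ± 0.27 SE, adjusted p = 2.24e-05. The other 2 called lower were RPS30B and RPS25B. RPS22A, with the deepest fall by day 3, also rose by day 7 (+2.05 ± 0.57 SE, adjusted p = 0.00584).

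Members with and without an intron had close medians, and single-copy genes a somewhat lower one than paired genes. The median day 3 change was -5.37 in the 36 genes with an intron and -5.18 in the 19 without. It was -6.25 in the 7 single-copy genes and -5.302 in the 48 paired ones. The medians of each split lie within the quartiles of all members.

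**Figure D2:**
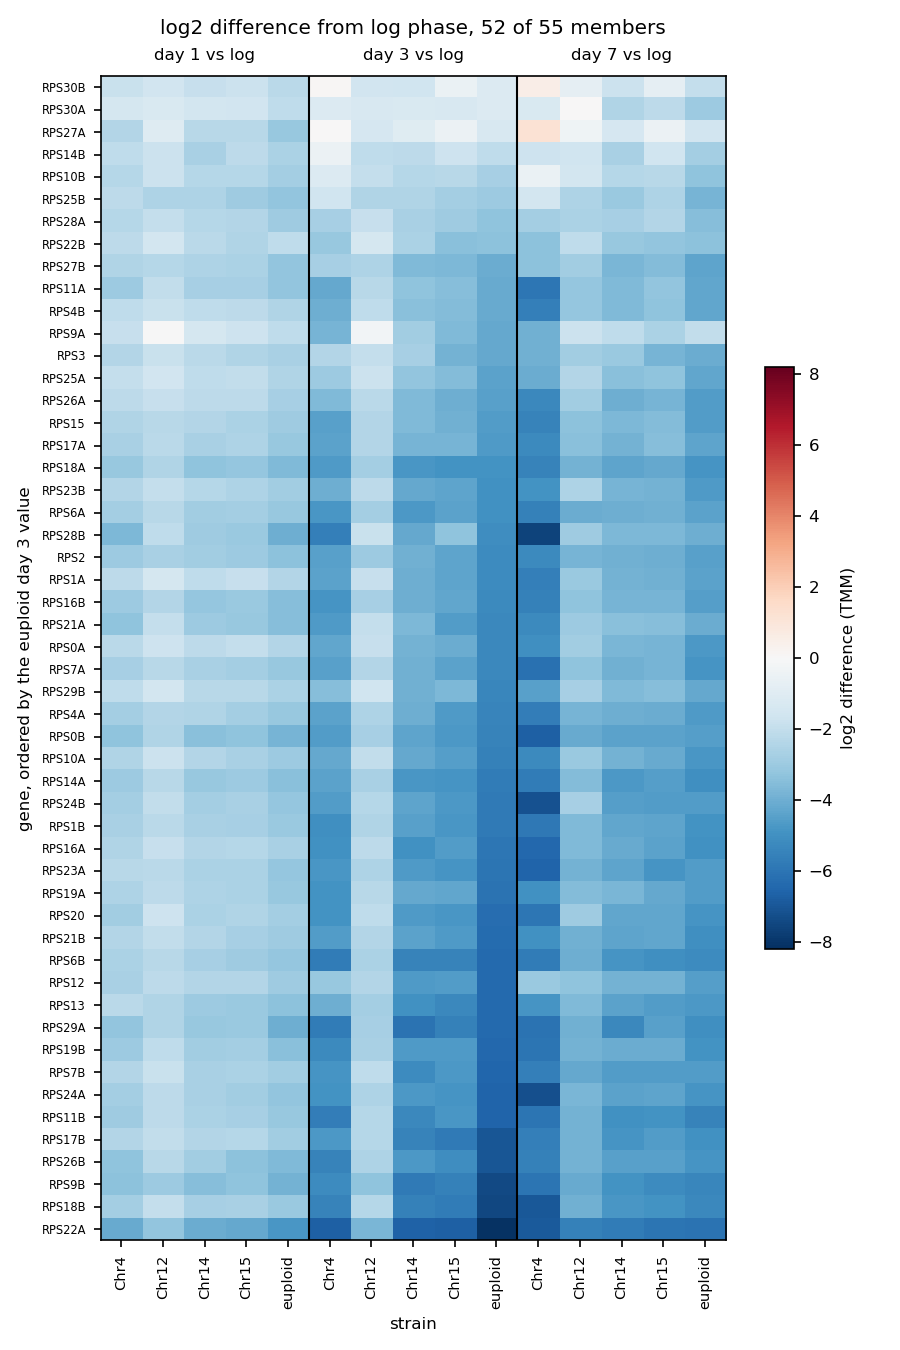
Log2 change from log phase of the same strain for 52 of the 55 genes (rows, ordered by the euploid change at day 3), in 5 strains at days 1, 3 and 7 (columns). Blue marks lower and red higher than log phase. At day 3 the column of Chr12 is paler than those of the other strains in most rows, and RPS30A, RPS30B and RPS27A stay pale in most columns.

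These genes also fell in the 4 aneuploids, with the smallest median fall at day 3 in Chr12. In Chr12, of the 55 genes 54 were lower at day 1 (background 31.3% lower and 30.5% higher, median -2.08), 54 were lower at day 3 (background 32.3% lower and 32.5% higher, median -2.33) and 53 were lower at day 7 (background 38.3% lower and 35.6% higher, median -3.28). The day 7 median ran from -4.44 to -2.75 as each library was left out. From day 1 to day 3 no member was called in Chr12 by edgeR's quasi-likelihood test (background 1.04% higher and 2.1% lower) and none had an unadjusted p under 0.05. DESeq2 called 1 lower, and a fit of the 2 groups alone 5. The median change over that step was -0.27, over -0.54 (RPS19B) to +0.25 (RPS28B). Over the same step, 45 members were called lower in Chr4 (background 38.7%), 44 in Chr14 (32.4%) and 48 in Chr15 (30.8%), with medians of -1.81, -1.64 and -1.81. From day 3 to day 7, 42 of its 55 genes were lower (background 27.5%) and 3 higher (24.6%), namely RPS27A, RPS30A and RPS30B. Without Chr12 culture 1 of day 7, 7 were lower, and in a fit of the 2 groups alone 3. RPS9A was the member not called at days 1 and 3 in Chr12, with 119.9 and 142 CPM at day 3 against 148 and 163 CPM in log phase.

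In Chr4, 55 were lower at day 1 (background 29.6% lower and 33.1% higher, median -2.52), 52 were lower at day 3 (background 41% lower and 34.8% higher, median -4.46) and 53 were lower at day 7 (background 42.5% lower and 33.3% higher, median -5.51). Its fall went on at day 7, where 13 genes were lower than at day 3 (background 11.3%) and RPS27A alone was higher (9.24%), with a median of -0.84. The 13 were 4 without Chr4 culture 1 of day 3 and 3 without Chr4 culture 1 of day 7, and RPS27A was not called without Chr4 culture 1 of day 7 or culture 2 of day 3. At day 7, 2 genes of Chr4 lay above log phase (background 33.3%). They were RPS27A, with 201 and 116 CPM at day 7 against 73.5 and 69.3 CPM in log phase (+1.16 ± 0.28 SE, adjusted p = 5.70e-04), and RPS30B, with 577 and 608 CPM against 413 and 404 CPM (+0.54 ± 0.24 SE, adjusted p = 0.0464). Whichever of the 4 libraries was left out, at least 1 of these calls was lost, and without Chr4 culture 1 of day 7 both were. The TMM factors of the Chr4 libraries at days 3 and 7 were low, at 0.316 to 0.536, against 0.619 to 1.62 in the other libraries, and the scaling moves the values of this strain as given below. In Chr14, 55 were lower at day 1 (background 33.1% lower and 34.7% higher, median -2.57), 55 were lower at day 3 (background 39.5% lower and 38.4% higher, median -4.18) and 55 were lower at day 7 (background 39.1% lower and 38.8% higher, median -3.93). In Chr15, 55 were lower at day 1 (background 32.2% lower and 34% higher, median -2.63), 54 were lower at day 3 (background 39.6% lower and 36.8% higher, median -4.41) and 54 were lower at day 7 (background 40.9% lower and 38.4% higher, median -3.91). From day 3 to day 7 the median moved by +0.20 in Chr14 and +0.37 in Chr15, where RPS30A was the single member called lower (background 2.23% and 10.4%). In both strains it was not called without culture 1 of day 3 or culture 2 of day 7. No member was called higher over that step in either (background 1.81% and 5.37%), while 6 in Chr14 and 8 in Chr15 had an unadjusted p under 0.05 and DESeq2 called 1 and 4.

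Set against the euploid at the same time, Chr12 at day 3 held the largest median difference of the 16 comparisons. The 4 comparisons at each time share the 2 euploid libraries. Of the 55 genes, 51 were higher and 1 was lower in Chr12 (background 38.4% higher and 31.5% lower), with a median log2 difference of +3.21 where that of all tested genes was +0.22. RPS18B differed most. It had 294 and 328 CPM in Chr12, against 11.3 and 10.97 CPM in the euploid (+4.798 ± 0.42 SE, adjusted p = 1.36e-10). RPS22A had 133 and 169.7 CPM in Chr12, against 7.22 and 10.1 CPM in the euploid (+4.11 ± 0.54 SE, adjusted p = 1.72e-07), and was named after its values were seen. The lower member was RPS30B, with 191 and 204 CPM in Chr12, against 306 and 319 CPM in the euploid (-0.66 ± 0.24 SE, adjusted p = 0.0171). RPS27A (-0.50), RPS14B (+0.41) and RPS10B (+0.51) did not pass the test. Leaving out any of the 4 libraries moved the 51 by less than 1.5 times, whereas RPS30B was not called without Chr12 culture 1 or euploid culture 2, and turned to +0.34 when the test was limited to genes that reached 10 counts in all libraries. The 81 large-subunit genes had a median of +3.08, with 78 higher and 1 lower.

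At day 1, 30 genes were higher in Chr12 and none lower (background 16.2% higher and 14.8% lower), with a median of +0.80, and all 55 estimates lay above 0. RPS29A, a copy on the extra chromosome of a small zinc-binding protein of the head, differed most, with 163 and 148 CPM in Chr12 against 35.03 and 27.5 CPM in the euploid (+2.32 ± 0.31 SE, adjusted p = 1.50e-06). Without euploid culture 2 of day 1 the count was 9, and without Chr12 culture 2 of day 1 it was 15. At day 7, 40 genes were higher and none lower (background 17.9% higher and 15.4% lower), with a median of +1.03. That median ran from +0.08 to +1.60 as each library was left out. RPS30A had 1778 and 1119 CPM in Chr12, against 122 and 85.1 CPM in the euploid (+3.82 ± 0.28 SE, adjusted p = 3.59e-11). This count rests on Chr12 culture 2, without which 9 were higher and 2 lower and the median was 0.08, and in a fit of the 2 groups alone 1 was higher. With library totals 12 were higher. In log phase 2 genes, RPS25B and RPS30A, were higher and none lower (background 5.53% higher and 2.61% lower), a share near the background on a median of -0.22, and leaving out any of the 4 libraries left 0 or 1.

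Chr14 differed from the euploid mainly at day 3, where 26 genes were higher and 1 was lower (background 8.94% higher and 6.31% lower), with a median of +0.99 where that of all tested genes was +0.04. RPS19B, a copy on the extra chromosome of a head protein needed to mature the subunit's RNA, differed most, with 88.1 and 77.00 CPM in Chr14 against 13.4 and 18.3 CPM in the euploid (+2.37 ± 0.35 SE, adjusted p = 5.45e-05). The lower member was RPS30B, with 154 and 175 CPM in Chr14 against 306 and 319 CPM in the euploid (-0.93 ± 0.25 SE, adjusted p = 0.0115). The count of 26 was 3 without euploid culture 1 of day 3, 14 without euploid culture 2 and 4 without Chr14 culture 1, and RPS30B was not called when any of these 3 was left out. At day 1 the 2 genes that were higher, RPS19B (+1.17) and RPS7B (+0.98), both lie on the extra chromosome, and none was lower (background 4.95% higher and 1.79% lower). Their share is near the background, and the count was 0 or 1 when any of the 4 libraries was left out. At day 7 RPS19B alone was higher (background 7.21% higher and 9.11% lower), with 142 and 107 CPM in Chr14 against 37.1 and 51.5 CPM in the euploid (+1.47 ± 0.30 SE, adjusted p = 0.00108), and the count was 4 without euploid culture 1 of day 7 and 2 without culture 2. In log phase no member was called (background 4.45% higher and 0.563% lower) by edgeR's quasi-likelihood test, while 2 were higher and 1 lower at an unadjusted p under 0.05, as many as DESeq2 called.

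In Chr15, 14 genes were higher and none lower at day 3 (background 17.3% higher and 11.6% lower), a share of members above the background on a median of +0.40. RPS12, a single-copy gene on the extra chromosome, had 153 and 160.3 CPM in Chr15, against 23.7 and 52.1 CPM in the euploid (+2.03 ± 0.35 SE, adjusted p = 7.43e-05). The count was 2 without euploid culture 1 of day 3 and 3 without Chr15 culture 2. At day 7, 6 were higher and 1 was lower (background 12.5% higher and 17.3% lower), with a median of +0.03, both shares below the background. RPS30B, on the extra chromosome, had 512 and 455 CPM in Chr15, against 226 and 119.7 CPM in the euploid (+1.502 ± 0.25 SE, adjusted p = 6.62e-05). RPS9A had 19.97 and 22.98 CPM in Chr15, against 28.8 and 86.5 CPM in the euploid (-1.51 ± 0.47 SE, adjusted p = 0.0157), and the count of lower members was 5 without euploid culture 1 of day 7 and 0 when any of the other 3 was left out. At day 1 none was called (background 4.42% higher and 0.273% lower) by edgeR's quasi-likelihood test, while 5 were higher and 1 lower at an unadjusted p under 0.05 and DESeq2 called 2 higher. In log phase 4 were lower and none higher (background 11.4% higher and 3.7% lower), with a median of -0.58. They were RPS28B, RPS29A, RPS27B and RPS27A, and the count was 0 without Chr15 culture 2 and 1 when any of the other 3 libraries was left out, while a fit of the 2 groups alone called 47 lower.

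In Chr4, 9 genes were higher and none lower at day 3 (background 17.7% higher and 13.3% lower), a share near the background, with a median of +0.45. RPS12 differed most, with 298 and 169.6 CPM in Chr4 against 23.7 and 52.1 CPM in the euploid (+2.61 ± 0.36 SE, adjusted p = 2.09e-06). The count was 5 without euploid culture 1 or Chr4 culture 1. With library totals in place of TMM, 1 was higher and 7 were lower, and the median was -0.37, so the direction of this median depends on the scaling. At day 7, 32 were lower and 6 higher (background 22.6% higher and 31.8% lower), with a median of -1.32 where all tested genes had -0.59. Without Chr4 culture 1 of day 7, 15 were lower. With library totals 51 were lower and 0 higher, at a median of -3.21, and in a fit of the 2 groups alone 10 were lower. The 6 that were higher were RPS27A, RPS10B, RPS30B, RPS25B, RPS30A and RPS12. RPS27A had 201 and 116 CPM in Chr4, against 33.4 and 42.2 CPM in the euploid (+2.04 ± 0.31 SE, adjusted p = 3.00e-06). RPS28B, a copy of the small protein by the mRNA exit, had 0 and 1 counts in Chr4, against 20 and 87 counts in the euploid. That is a ratio of 0.0546 after scaling, with a 95% interval of 0.00137 to 0.311 that covers counting error only. At day 1 RPS18A, on the extra chromosome, was the single member called, with 339.5 and 317 CPM in Chr4 against 218 and 158 CPM in the euploid (+0.80 ± 0.25 SE, adjusted p = 0.0272), and none was lower (background 11.3% higher and 5.66% lower). It was not called without either Chr4 culture or euploid culture 2. In log phase 4 (RPS25B, RPS27B, RPS28A and RPS10B) were lower and none higher (background 7.45% higher and 2.2% lower), with a median of -0.65. The count was 1 whichever of the 4 libraries was left out, and 50 in a fit of the 2 groups alone.

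**Figure D3:**
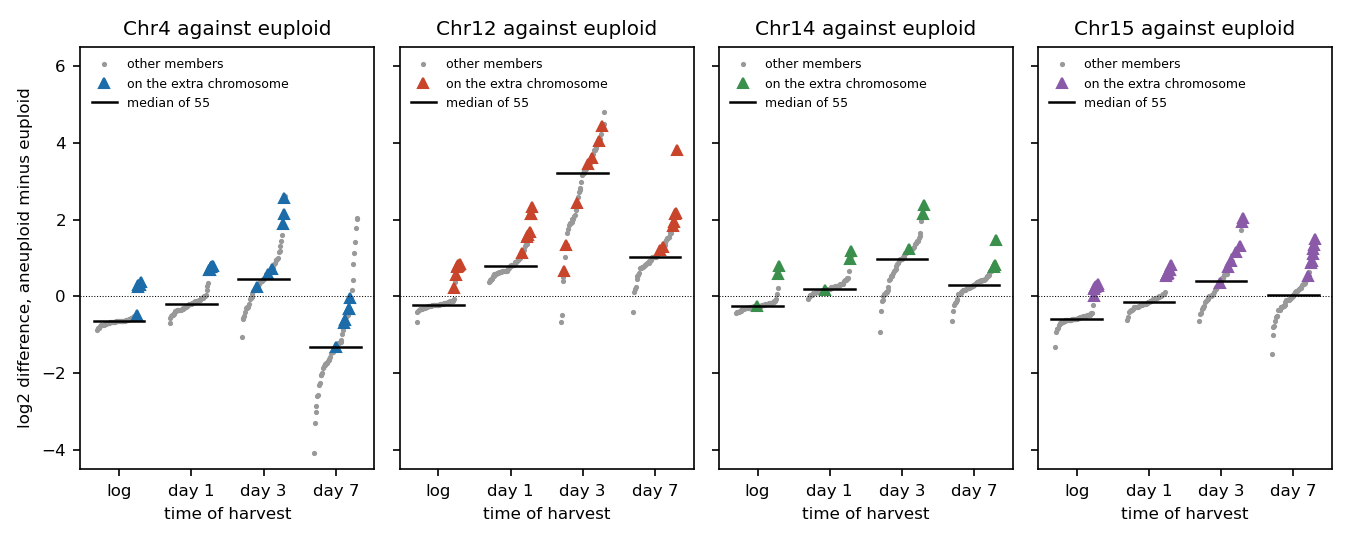
Log2 difference from the euploid at the same time for each of the 55 genes (points, sorted within each time), by aneuploid and time point. Coloured triangles are genes on the extra chromosome, grey points the others, and bars the median of the 55. Nearly all points of Chr12 at day 3 lie above 0.

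Whether a strain changed from log phase by another amount than the euploid was tested as the difference between the 2 changes. In Chr12 the difference was positive in 12 genes at day 1 (background 9.23%), 49 at day 3 (33.2%) and 28 at day 7 (10%), and negative in none at these days (6.74%, 26.1% and 8.05%). The day 3 median was +3.295, and RPS18B had the largest difference, at +5.12 ± 0.52 SE, adjusted p = 7.85e-09. The 49 held within 1.5 times whichever library was left out. The day 1 count was 1 without euploid culture 2 of day 1 and 5 to 7 without either Chr12 culture of log phase, euploid culture 2 of log phase or Chr12 culture 2 of day 1, and the day 7 count ran from 8 without Chr12 culture 2 to 48 without Chr12 culture 1. With library totals the day 7 count was 4, and in a fit of the groups compared alone it was 0. Chr4 held 1 positive difference at day 1 (RPS25B, background 1.96%), 20 at day 3 (11.3%) and 8 at day 7 (16.6%), with 9 negative at day 7 (24.2%) and none before (1.43% and 8.7%). The 20 were 9 without euploid culture 1 or Chr4 culture 1 of day 3, the single difference of day 1 was lost whichever library was left out, and the 9 negative ones were 5 without Chr4 culture 1 or euploid culture 2 of day 7. With library totals in place of TMM, Chr4 held 1 positive at day 3, and 0 positive and 49 negative at day 7, so the picture in Chr4 depends on the scaling. Chr14 held 6 positive at day 3 (1.96%), with 0 without euploid culture 1 of day 3, 1 without Chr14 culture 1 of day 3 and 2 without any log-phase library, and none negative (1.47%). Chr15 held 16 at day 3 (14.3%) and 5 at day 7 (4.13%), with none negative (10.6% and 9.48%). The 16 were 4 without euploid culture 1 or Chr15 culture 2 of day 3, and the 5 ran from 1 without Chr15 culture 1 of day 7 to 11 without euploid culture 1 of day 7, and were 1 with library totals and 0 in a fit of the groups compared alone. No difference was called by edgeR's quasi-likelihood test in Chr14 at days 1 and 7 (5 were at day 7 without euploid culture 1) or in Chr15 at day 1. At an unadjusted p under 0.05 there were 4, 7 and 1 positive ones there, and DESeq2 called 1, 3 and 2.

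The 4 extra chromosomes carry 23 small-subunit genes between them, so those genes had an additional copy in 1 strain each. In log phase, the 6 genes on chromosome IV had a median log2 difference of +0.29 in Chr4 over the euploid, against -0.65 for the other 49. In Chr12 the 7 on XII had +0.79, against -0.23 for the other 48. In Chr14 the 3 on XIV had +0.60, against -0.25 for the other 52. In Chr15 the 7 on XV had +0.27, against -0.59 for the other 48. In every strain the genes on the extra chromosome thus stood above the rest by their median, by close to the step that all genes of the chromosome showed, but on a scale where the rest lay below 0. Of the 23, RPS25B (+0.84 ± 0.19 SE, adjusted p = 0.0054) and RPS30A (+0.82 ± 0.25 SE, adjusted p = 0.0369) in Chr12 passed the test.

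RPS25B encodes a protein that some viral and cellular mRNAs need to start translation without a cap, and had 989.8 and 1056 CPM in Chr12 log phase against 580.3 and 564 CPM in the euploid. RPS30A had 1386 and 1459 CPM in Chr12, against 788 and 827 CPM in the euploid. The groups do not overlap in either. The other 5 genes on XII lay between +0.23 (RPS28B) and +0.81 (RPS0B), with RPS22B at +0.55, RPS1A at +0.76 and RPS29A at +0.79. On IV, RPS29B, RPS16B, RPS11A, RPS17B and RPS18A lay between +0.25 and +0.38, and RPS13, an intron-bearing single-copy gene, at -0.48. On XIV, RPS7B had +0.79 and RPS19B +0.60, whereas RPS3, whose protein lines the mRNA entry, had -0.25. On XV, RPS15, RPS19A, RPS7A, RPS30B, RPS10A and RPS12 lay between +0.19 and +0.31, and RPS28A at 0.00. RPS3 in Chr14 thus lay at the median of the genes without an additional copy, and RPS13 in Chr4 just above the highest of them (-0.50). RPS13 had 2037 and 2289 CPM in Chr4, against 2885 and 3151 CPM in the euploid. RPS3 had 2888 and 2940.5 CPM in Chr14, against 3354 and 3575 CPM in the euploid. At day 3 the medians on the extra chromosome were +1.303 in Chr4 (3 of 6 higher), +3.45 in Chr12 (7 of 7), +2.15 in Chr14 (3 of 3) and +1.17 in Chr15 (6 of 7), against +0.40, +3.19, +0.97 and +0.29 for the genes elsewhere. All tested genes of these chromosomes had day 3 medians of +0.92, +1.47, +0.99 and +0.75, and of all tested genes 17.7%, 38.4%, 8.94% and 17.3% were higher in the same strains.

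A pair with 1 copy on the extra chromosome gives a ratio within a library, here with 1 count added to each copy, that scaling does not move. There were 19 such combinations of a pair and a strain. The log2 ratio of the copy on the extra chromosome to its partner elsewhere, as the aneuploid minus the euploid, had a median of +0.94 in log phase, over +0.59 to +1.33, where a doubled copy number with an unchanged output per copy gives 1. All 19 were above 0. At day 1 the median was +0.96 (-0.23 to +1.700, 18 above 0), at day 3 +0.85 (-1.55 to +2.99, 15 above 0) and at day 7 +1.11 (-0.24 to +2.74, 17 above 0). In Chr4 alone the day 3 median was +0.24. The range was widest at day 3. With 2 libraries against 2, an exact permutation test cannot give a p below 0.333, so these ratios are given as values.

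RPS17B, on chromosome IV, gained most on its partner, and still lay below it. Its log2 ratio to RPS17A at day 3 was -0.38 and -0.40 in the 2 Chr4 cultures, against -4.22 and -2.54 in the euploid, a shift of +2.99. RPS28B over RPS28A at day 3 was -0.48 and -0.36 in Chr12, against -2.605 and -2.88 in the euploid, a shift of +2.32. In others the shift went the other way. RPS22B, on XII, over RPS22A at day 3 was +0.98 and +0.44 in Chr12, against +2.25 and +2.27 in the euploid, a shift of -1.55. RPS25B over RPS25A was -1.08 and -1.05 in Chr12, against +0.19 and -0.33 in the euploid, a shift of -0.995. At day 3 in the euploid the RPS22 ratio rests on 7 and 11 counts of RPS22A. These 4 were chosen after their values were seen.

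**Figure D4:**
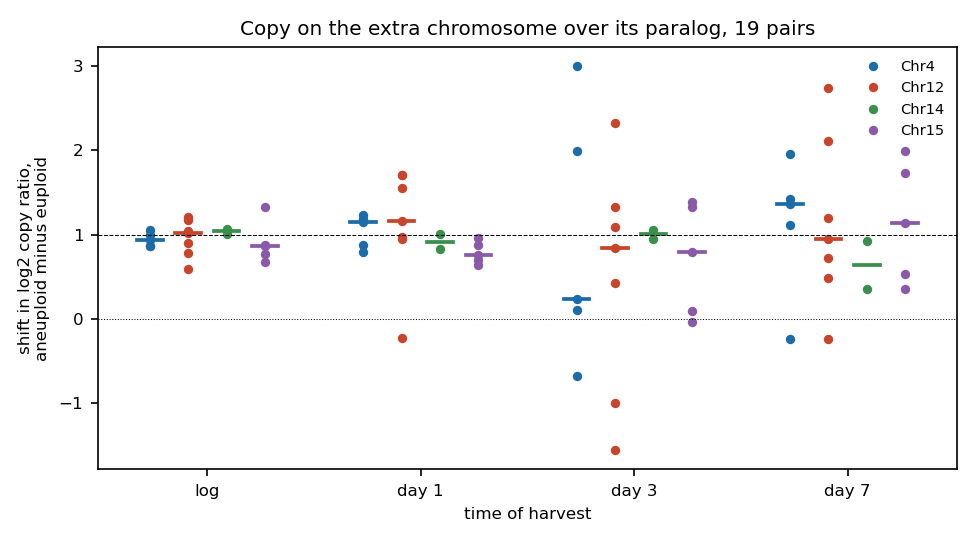
Log2 ratio of the copy on the extra chromosome to its partner, aneuploid minus euploid, for 19 combinations of pair and strain (points) at 4 times, with bars for the median of each strain. The dashed line at 1 marks a doubling of the ratio. In log phase the points lie between 0.59 and 1.33, and at day 3 between -1.55 and 2.99.

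The copies of a pair did not fall alike in the euploid. The log2 ratio of copy A to copy B changed between log phase and day 3 by more than 1 in either direction in 18 of 24 pairs, by more than 1 at day 1 in 6 and at day 7 in 7. Left-out libraries moved the day 3 count between 15 and 19. The RPS22 pair changed most. Its log2 ratio was -2.25 and -2.27 in the 2 euploid cultures of day 3, against +2.33 and +2.42 in log phase, a change of -4.63. RPS22B, the copy with fewer counts in log phase, thus had more counts than RPS22A at day 3. Whether reads of SNR44, in the RPS22B intron, were among them was not tested. The RPS14 pair (a protein of the platform that contacts the mRNA near the exit) turned over as well, with -1.21 and -1.25 at day 3 against +2.35 and +2.38 in log phase, a change of -3.596. The RPS9 ratio was -1.38 and 0.00 at day 3, against -3.63 and -3.51 in log phase, a change of +2.88 with its 2 day 3 cultures apart. Its day 3 values rest on 4 and 24 counts of RPS9A and 12 and 24 counts of RPS9B. The RPS27 ratio was -0.25 and -1.49 at day 3, against -3.65 and -3.84 in log phase, a change of +2.87. In the last 2 pairs the lesser copy of log phase came near or level with its partner in 1 culture each and stayed well below it in the other.

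By median, Chr12 changed these ratios least at day 3. The median size of the change from log phase over the 24 pairs was 1.101 in Chr4, 0.421 in Chr12, 0.992 in Chr14, 0.976 in Chr15 and 1.39 in the euploid, and 12, 4, 12, 12 and 18 pairs changed by more than 1. The small-subunit genes took 50079 and 44145 counts in the Chr12 cultures of day 3, against 3071 and 4192 in the euploid. They took 2858 and 2402 in Chr4, 11044 and 6147 in Chr14 and 6907 and 10378 in Chr15. The SD of the ratio between euploid cultures, pooled over pairs, was 0.512 at day 3 and 0.0675 in log phase. Ratios of few counts scatter more, and how far this set the order of the strains was not tested. Among pairs with neither copy on the extra chromosome, RPS10 in Chr4 at day 7 differed most from the euploid. Its log2 ratio was -4.75 and -2.86 in Chr4, against -0.92 and -0.02 in the euploid, a difference of -3.34. The 2 Chr4 values rest on 6 and 21 counts of RPS10A, so the size of this difference is poorly set. RPS10B is among the 6 members that were higher in Chr4 at that time. RPS18 at day 3 was -0.09 and -0.11 in Chr12, against +2.74 and +2.64 in the euploid, a difference of -2.79. In Chr12 the RPS18 copies thus stayed nearer to their log-phase ratio of +0.33 and +0.39, while in the euploid copy A stood well above copy B. RPS10 at day 3 was +0.82 and +0.83 in Chr12, against -1.77 and -1.95 in the euploid, a difference of +2.68.

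**Figure D5:**
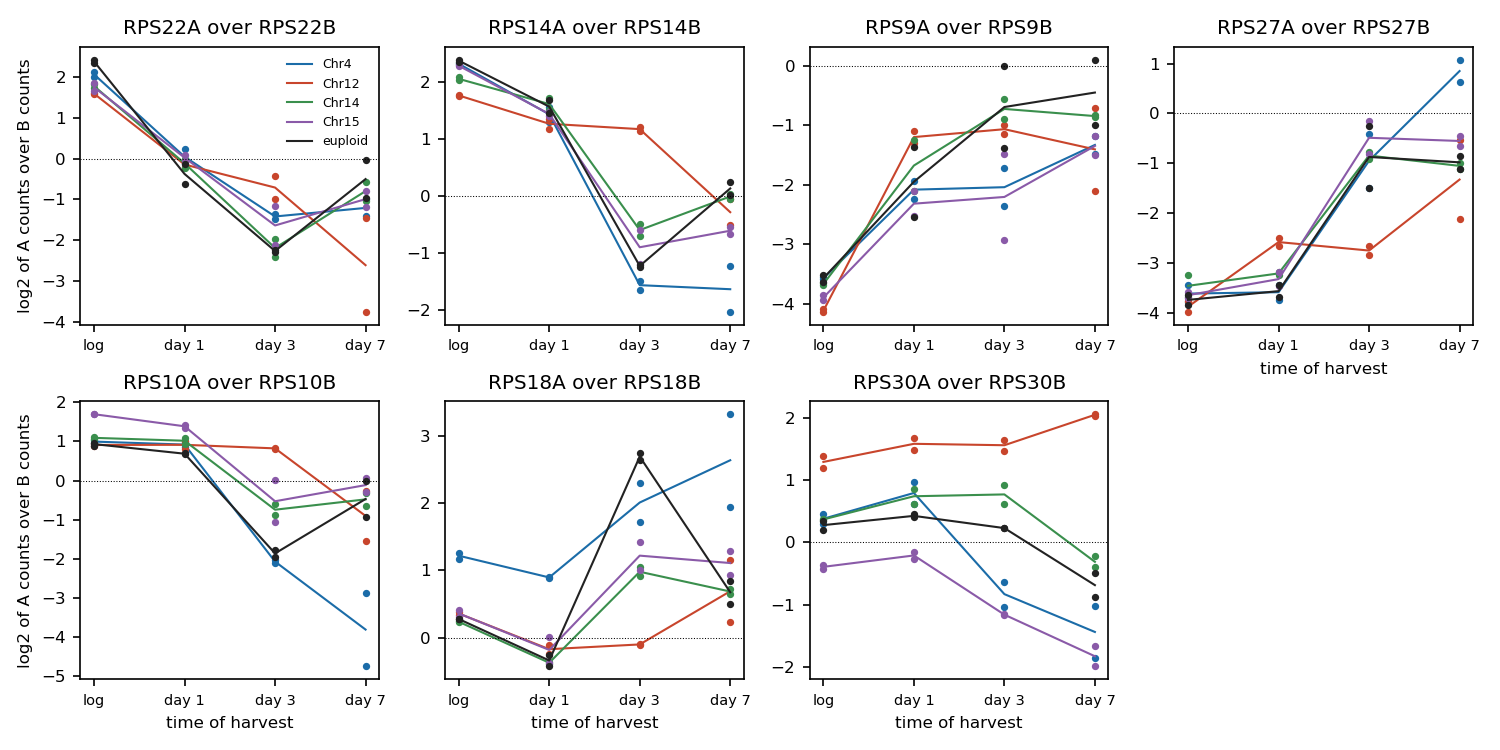
Log2 ratio of copy A to copy B (pseudocount of 1 count) for 6 pairs described and for RPS30, by time point and strain. Each point is 1 library and each line joins the means of 2 libraries. The euploid points of RPS22 and RPS14 cross 0 between log phase and day 3, and over the same times those of Chr12 move less.

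Genes that act on the small subunit were followed as 5 lists. The background at day 3 in the euploid was 38.7% higher and 41.4% lower. Of 26 tested assembly factors of the subunit, 0 were higher and 24 lower at day 3 than in log phase in the euploid, with a median log2 change of -2.99. EMG1, which methylates the subunit's RNA, changed by -5.92 (adjusted p = 2.37e-09). Its day 3 levels of 1.03 and 3.66 CPM rest on very few counts, so the size of that change is poorly set. Of 16 genes of other proteins of the subunit or bound to the ribosome, 3 were higher and 13 lower (median -3.79). ASC1, the scaffold on the head, changed by -6.45 (adjusted p = 7.33e-14), and RPS31, the ubiquitin fusion left out of the 55, by -5.63 (adjusted p = 3.48e-14). Of 11 genes for ubiquitin on the subunit, 4 were higher and 6 lower (median -0.92), with HEL2, the ligase that senses collided ribosomes, at -1.09 (adjusted p = 2.65e-04). Of 15 regulators of ribosomal protein transcription, 10 were higher and 3 lower (median +0.85). CRF1, a co-repressor that competes with Ifh1, changed by +3.37 (adjusted p = 1.06e-11), FHL1 by +1.95 (adjusted p = 6.24e-08), RAP1 by +0.04 (adjusted p = 0.866) and HMO1 by -1.41 (adjusted p = 1.36e-06). Of 15 genes of TORC1, protein kinase A and Sch9 signalling, 10 were higher and 3 lower (median +1.83), among them YAK1, the kinase that restrains growth, at +5.41 (adjusted p = 3.71e-12).

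The lists were also compared between Chr12 and the euploid at day 3 (background 38.4% higher and 31.5% lower), with the euploid libraries of the paragraph above. Of the 26 assembly factors, 16 were higher and 1 lower in Chr12 (median +1.55), with EMG1 at 60.1 and 60.4 CPM in Chr12 against 1.03 and 3.66 CPM in the euploid. EMG1 lies on the extra chromosome of Chr12, and in log phase it had 304 and 281 CPM in Chr12 against 148 and 149 CPM in the euploid. Of those 16 genes of other proteins, 10 were higher and 3 lower (median +2.01), with ASC1 at +3.59 (adjusted p = 5.01e-09). Of the 15 transcription regulators, 2 were higher and 9 lower (median -0.73), with FHL1 at -1.63 (adjusted p = 2.80e-06) and IFH1 at +0.66 (adjusted p = 0.0234). IFH1 also lies on the extra chromosome, and in log phase it had 206 and 170.4 CPM in Chr12 against 97.9 and 100.5 CPM in the euploid, a log2 difference of +0.92. Of the 15 signalling genes, 1 was higher and 8 lower (median -0.77), with YAK1 at -2.78 (adjusted p = 3.79e-07). Of the 11 ubiquitin genes, 4 were higher and 4 lower (median -0.04), shares near the background, and HEL2 did not pass the test, at -0.04 (adjusted p = 0.889).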

How the data were processed

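RNA-seq was made from the euploid YPS1009 and 4 aneuploid strains. The authors deposited whole-number read counts per gene, with no normalization. Reads were trimmed and mapped to S288c carrying YPS1009 variants, and counted per gene. The submitters' processing notes name Trimmomatic 0.39, BWA 0.7.12-r1039 and HTSeq 0.7.2. The counting mode, the use of strand and the S288c release are not given in the sources used here, so overlapping and antisense genes are uncertain. Fission yeast cells had been added to the samples as a spike-in, but the table used here held 0 fission yeast rows. No spike-in scaling was therefore made. Whether fission yeast reads were counted on the genes described here was not tested.

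Counts were scaled by TMM and tested with edgeR 4.0.16 (R 4.3.3, quasi-likelihood test, 20 groups of strain and time, no block) over the 5864 genes that reached 10 counts in 2 or more libraries, with a prior count of 0.125 and Benjamini-Hochberg adjustment at 0.05. DESeq2 1.42.0 was an alternative. Other alternatives were other scalings and filters, a replicate block, the groups compared alone and each library left out. All replicate pairs differed beyond sampling noise. The test was also run on simulated counts, drawn with the spread that the fit itself had estimated. The outcome is not reported here, and no result above rests on it. Genes named with values were the 3 largest and 3 smallest euploid falls at day 3, the 3 highest and 3 lowest levels, members on an extra chromosome, the called member with the largest difference each way, and the 5 and 3 pairs whose ratios moved most between times and strains. Results of some genes that this rule names are not reported here. Others are said to be chosen after their values were seen. The members and the gene lists were chosen with earlier results of these data known. Coordinates and sequences are from RefSeq R64.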

Additional observations from a re-analysis of the deposited data

Results flagged for a closer look

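The change of a member from log phase differed between an aneuploid and the euploid in 10 sets, each by edgeR's test of the difference itself (Benjamini-Hochberg adjusted p under 0.05 over all tested genes). All share the euploid libraries. The shares in Chr4 at days 1 and 7 are near or below the background over all tested genes. In Chr4 at day 1, 1 member changed by an amount above that of the euploid (background 1.96%), with RPS25B at +1.04 ± 0.28 SE (adjusted p = 0.0338), and the count was 0 whichever library was left out. In Chr4 at day 3, 20 members changed by an amount above that of the euploid (background 11.3%), with RPS12 at +3.24 ± 0.48 SE (adjusted p = 1.68e-05), and the count ran between 9 and 20 as each library was left out and was 1 with library totals. In Chr4 at day 7, 8 members changed by an amount above that of the euploid (background 16.6%), with RPS10B at +2.75 ± 0.35 SE (adjusted p = 7.15e-07), and the count ran between 6 and 8 as each library was left out. In Chr4 at day 7, 9 members changed by an amount below that of the euploid (background 24.2%), and RPS28B had 0 and 1 counts in Chr4 against 20 and 87 counts in the euploid, and the count ran between 5 and 12 as each library was left out and was 49 with library totals. In Chr12 at day 1, 12 members changed by an amount above that of the euploid (background 9.23%), with RPS27A at +2.05 ± 0.39 SE (adjusted p = 4.09e-04), and the count ran between 1 and 12 as each library was left out. In Chr12 at day 3, 49 members changed by an amount above that of the euploid (background 33.2%), with RPS18B at +5.12 ± 0.52 SE (adjusted p = 7.85e-09), and the count ran between 49 and 50 as each library was left out. In Chr12 at day 7, 28 members changed by an amount above that of the euploid (background 10%), with RPS30A at +3.003 ± 0.36 SE (adjusted p = 9.24e-07), and the count ran between 8 and 48 as each library was left out. In Chr14 at day 3, 6 members changed by an amount above that of the euploid (background 1.96%), and the count ran between 0 and 5 as each library was left out. In Chr15 at day 3, 16 members changed by an amount above that of the euploid (background 14.3%), and the count ran between 4 and 18 as each library was left out. In Chr15 at day 7, 5 members changed by an amount above that of the euploid (background 4.13%), with RPS25B at +1.28 ± 0.29 SE (adjusted p = 0.00336), and the count ran between 1 and 11 as each library was left out.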

How the results depend on the processing

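All 15 comparisons with log phase kept their direction under every alternative tried, and the counts of lower members held within 1.5 times except with at least 10 counts in every library, where 23 members could be tested and all 23 were lower in each. The other values moved more than the spread between replicates as follows, and the cause was not tested. With library totals only the median over members, aneuploid over euploid, was -0.35 in Chr4 log phase, -0.37 in Chr4 day 3, -3.21 in Chr4 day 7, +1.11 in Chr12 day 1, +3.79 in Chr12 day 3, -0.20 in Chr14 log phase, +1.46 in Chr14 day 3, -0.31 in Chr15 log phase and +0.93 in Chr15 day 3, on the extra chromosome in log phase it was +0.58 in Chr4, +0.65 in Chr14 and +0.53 in Chr15, and the median difference in change was +0.034 in Chr4 day 3, -2.91 in Chr4 day 7, +1.26 in Chr12 day 1, +3.91 in Chr12 day 3, +1.68 in Chr14 day 3, +0.14 in Chr15 day 1, +1.100 in Chr15 day 3 and +0.26 in Chr15 day 7. With only the groups compared in the fit the median over members, aneuploid over euploid, was -0.52 in Chr4 log phase, -0.18 in Chr14 log phase, -0.50 in Chr15 log phase and +0.57 in Chr15 day 3, on the extra chromosome in log phase it was +0.41 in Chr4, +0.66 in Chr14 and +0.34 in Chr15, and the median difference in change was -1.196 in Chr4 day 7 and +1.05 in Chr15 day 3. With TMM factors that left out the extra chromosome the median over members, aneuploid over euploid, was -0.44 in Chr4 log phase, -1.54 in Chr4 day 7, -0.11 in Chr12 log phase, -0.15 in Chr14 log phase and -0.49 in Chr15 log phase and on the extra chromosome in log phase it was +0.50 in Chr4, +0.89 in Chr12, +0.69 in Chr14 and +0.35 in Chr15. With DESeq2's size factors the median over members, aneuploid over euploid, was -1.07 in Chr4 day 7, +3.404 in Chr12 day 3 and -0.64 in Chr15 log phase, on the extra chromosome in log phase it was +0.21 in Chr15, and the median difference in change was -0.45 in Chr4 day 7, +3.47 in Chr12 day 3 and +1.06 in Chr15 day 3. With DESeq2's Wald test the median over members, aneuploid over euploid, was -1.07 in Chr4 day 7, +3.404 in Chr12 day 3 and -0.64 in Chr15 log phase, on the extra chromosome in log phase it was +0.21 in Chr15, and the median difference in change was -0.46 in Chr4 day 7, +3.47 in Chr12 day 3 and +1.06 in Chr15 day 3. With at least 10 counts in every library the median over members, aneuploid over euploid, was +2.999 in Chr12 day 3, -0.29 in Chr14 log phase, -0.65 in Chr15 log phase and +0.24 in Chr15 day 7, on the extra chromosome in log phase it was +0.84 in Chr12, -0.29 in Chr14 and +0.18 in Chr15, and the median difference in change was +0.72 in Chr4 day 3, -0.998 in Chr4 day 7, +3.16 in Chr12 day 3, +1.05 in Chr15 day 3 and +0.78 in Chr15 day 7. With no filter on low counts the median over members, aneuploid over euploid, was -0.63 in Chr15 log phase, on the extra chromosome in log phase it was +0.22 in Chr15, and the median difference in change was +1.05 in Chr15 day 3. The share of counts without the 10 most abundant genes of each library was 1.49% in the euploid at day 1 and 11.7% in log phase. RPS30B in Chr12 at day 3 turned to +0.34 with at least 10 counts in every library. RPS28A in Chr15 log phase, at 0.00 as reported, was -0.057, -0.012, -0.045, -0.055 and -0.057 with DESeq2's size factors, TMM without ribosomal protein genes, no filter, at least 10 counts in every library and DESeq2. Leaving out 1 culture gave -0.091 to +0.10 there, and medians of -0.26 to -0.16 in Chr12 log phase, +2.93 to +3.396 in Chr12 day 3, -0.28 to -0.21 in Chr14 log phase, +0.80 to +1.23 in Chr14 day 3, +0.15 to +0.50 in Chr14 day 7, +0.23 to +0.28 in Chr15 on the extra chromosome, -0.60 to -0.53 in Chr15 log phase, +0.12 to +0.67 in Chr15 day 3, -0.091 to +0.22 in Chr15 day 7, -0.98 to -0.55 in Chr4 day 7 (difference in change), +3.11 to +3.48 in Chr12 day 3 (difference in change), +1.04 to +1.400 in Chr14 day 3 (difference in change) and +0.67 to +1.14 in Chr15 day 3 (difference in change). With library totals only counts of called members were 51 lower in Chr4 day 7 (reported 32), 12 higher in Chr12 day 7 (reported 40), 1 higher in change in Chr4 day 3 (reported 20), 49 lower in change in Chr4 day 7 (reported 9), 21 higher in change in Chr12 day 1 (reported 12), 4 higher in change in Chr12 day 7 (reported 28) and 10 higher in change in Chr14 day 3 (reported 6). With only the groups compared in the fit counts of called members were 50 lower in Chr4 log phase (reported 4), 10 lower in Chr4 day 7 (reported 32), 20 lower in Chr12 log phase (reported 0), 54 higher in Chr12 day 1 (reported 30), 1 higher in Chr12 day 7 (reported 40), 47 lower in Chr15 log phase (reported 4), 55 higher in change in Chr12 day 1 (reported 12), 0 higher in change in Chr12 day 7 (reported 28), 43 higher in change in Chr14 day 3 (reported 6) and 39 higher in change in Chr15 day 3 (reported 16). With DESeq2's Wald test counts of called members were 25 lower in Chr4 log phase (reported 4), 19 higher in Chr4 day 3 (reported 9), 23 lower in Chr15 log phase (reported 4), 32 higher in change in Chr12 day 1 (reported 12), 43 higher in change in Chr12 day 7 (reported 28), 25 higher in change in Chr14 day 3 (reported 6), 32 higher in change in Chr15 day 3 (reported 16) and 15 higher in change in Chr15 day 7 (reported 5). Across the 53 comparisons the median of all tested genes moved by -2.18 to +0.62 with library totals and by -0.37 to +0.26 with DESeq2's size factors.

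The deviations of same-numbered cultures from their group means had a median r of 0.0243 over 41 comparisons of groups, with 10 over 0.1, so the numbers were not read as pairs. A fit with the replicate number as a block moved 2 of 106 counts of called members by more than 1.5 times, namely those higher in Chr14 at day 1, to 1, and lower in Chr15 at day 3, to 1. It left the other 104 within 1.5 times, and changed the call of none of the 44 differences of named genes refitted. The alternatives for the steps between days 1 and 3 and days 3 and 7 were chosen after seeing the data. Depth limits the later days most. In the euploid at day 3 RPS22A rested on 7 and 11 counts, and in Chr4 at day 7 RPS24B had 1 and 2 counts and RPS29A 0 and 3 counts. Intervals cover counting error only.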

Other observations

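A pair of further copies rested on very few counts in Chr4 at day 7. RPS24B, whose protein lies in the body of the subunit, had 1 and 2 counts in Chr4 at day 7, against 44 and 134 in the euploid, a scaled ratio of 0.0984 (95% counting interval 0.0201 to 0.292). RPS29A had 0 and 3 counts in Chr4 at day 7, against 13 and 49 in the euploid, a scaled ratio of 0.283 (95% counting interval 0.0567 to 0.865). These genes were chosen after their values were seen.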
